A study of Mus musculus with 88 samples.

Results

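The transcripts described here are those of 9 genes of the PI3K, FOXO3 and mTOR pathway (Pik3ca, Akt1, Foxo3, Tsc1, Tsc2, Mtor, Rptor, Rictor and Rps6kb1), measured in single mouse oocytes. The genes were chosen by name, with earlier results of these data known. Each was matched to 1 of the 38540 transcript features in the deposited count table. For 5 genes the feature carried the gene's name in the study's own list of features, and for the other 4 it was the feature on the same strand that best overlapped the GENCODE M21 gene model. All 9 features had a mean of at least 10 counts per oocyte, as did 12408 features in total. The feature that carries the name Tsc2 lies on the strand opposite to the Tsc2 gene, inside it. It was kept as a member because the rule selects it, is called the opposite-strand feature throughout, and is not read as Tsc2 mRNA. The feature on the same strand as Tsc2 was measured beside it and is what Tsc2 refers to below.

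The oocytes were fully grown germinal vesicle (GV) oocytes, arrested in meiotic prophase, from unmated C57BL/6Babr females, for which the labels name no engineered allele and no treatment. Young females were 12 weeks old and aged females 44 to 54 weeks old. Each oocyte gave an RNA library by the single-cell method scM&T-seq, which separates the RNA of a cell from its DNA. Libraries of 42 young and 45 aged oocytes entered the comparisons. The study's supplementary table of oocytes assigns each a chromatin configuration, either non-surrounded nucleolus (NSN) or surrounded nucleolus (SN). There were 30 young NSN, 12 young SN, 37 aged NSN and 8 aged SN oocytes. In oocytes with a true SN configuration the chromatin rings the nucleolus, transcription has ceased and competence for development is higher. The chromatin was not observed, and the paper considers it likely that classes called from expression differ from the real configuration. It proposes that aged oocytes which should be SN mostly carry an immature, NSN-like transcriptome. The assignment was made from transcript levels of the same oocytes, with genes known to be higher in SN oocytes, and whether any of the 9 genes was among them was not tested, so an SN to NSN difference is a description of those 2 classes. The oocytes came from 3 young and 7 aged females per the study's methods, but the mouse of each oocyte is not named in the labels. Oocytes of 1 age were therefore treated as 1 sample, no test was run and no p-value is given. The spread over oocytes includes any spread between mice.

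In the oocyte, as in other cells, phosphoinositide 3-kinase (PI3K) converts a membrane lipid into a signal that activates the kinase AKT. AKT phosphorylates the transcription factor FOXO3, which then leaves the nucleus. FOXO3 in the nucleus holds primordial follicles in reserve, and its loss activates the whole pool. AKT also phosphorylates TSC2, the partner of TSC1 in a complex that restrains the small GTPase RHEB and through it mTOR complex 1 (mTORC1). mTORC1 contains the kinase mTOR and the subunit RAPTOR (gene Rptor), and drives translation and growth partly through the S6 kinase (gene Rps6kb1). The same kinase forms mTOR complex 2 (mTORC2) with RICTOR, which phosphorylates AKT. All of these steps are regulated on the proteins, and transcript levels do not show the activity of the pathway.

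Total counts per oocyte were 1579196 to 8231046 in the young and 976456 to 5448310 in the aged group, with medians of 3002989 and 2379884. The reads carried no molecular identifiers, so the 95% intervals given below, from summed counts, cover counting error only. All 9 oocyte markers with a feature, such as Gdf9 and Zp3, had a mean of at least 10 counts. Their summed level was 9788 to 23220 CPM (counts after scaling the total to 1000000) in aged NSN oocytes and 14950 to 22410 CPM in young NSN oocytes. Markers of theca and stroma summed to at most 3.45 CPM in any oocyte. Col1a1 and the haemoglobin genes Hba-a1 and Hbb-bs had no count in the 87 oocytes. The 10 granulosa and cumulus markers summed to medians of 41.45 to 48.9 CPM in the 4 groups, with Nr5a2 the most abundant at 25.99 CPM. Their highest sum in a single oocyte was 116.5 CPM in young NSN, 61.91 in young SN, 118.4 in aged NSN and 60 in aged SN oocytes. The vessel marker Pecam1 was at 65.1 CPM. One aged oocyte, for which the table gives no configuration, was left out, and the total of aged oocyte 15 differs from the one the table gives, whereas the other 87 totals are equal to it.

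For most members the oocyte transcript begins upstream of the RefSeq start of the gene (GRCm38.p6). The feature began 1625 bases upstream for Foxo3, 754 for Tsc2, 233 for Tsc1, 190 for Rps6kb1, 106 for Pik3ca, 49 for Rictor, 39 for Mtor and 0 for Rptor. The Akt1 feature began 13 bases upstream of the outer of its 2 RefSeq starts. The 250 bases before the RefSeq start are printed for Tsc1, Tsc2, Mtor and Rptor, the 4 genes whose level was at least 1.2-fold higher in SN than in NSN oocytes at both ages. Capitals mark bases inside the span of the oocyte feature, which are 233 bases for Tsc1, all 250 for Tsc2, 39 for Mtor and 0 for Rptor. The windows are chr2:28640983-28641232 (plus strand) for Tsc1, chr17:24632628-24632877 (minus strand) for Tsc2, chr4:148448332-148448581 (plus strand) for Mtor and chr11:119602655-119602904 (plus strand) for Rptor.
Tsc1: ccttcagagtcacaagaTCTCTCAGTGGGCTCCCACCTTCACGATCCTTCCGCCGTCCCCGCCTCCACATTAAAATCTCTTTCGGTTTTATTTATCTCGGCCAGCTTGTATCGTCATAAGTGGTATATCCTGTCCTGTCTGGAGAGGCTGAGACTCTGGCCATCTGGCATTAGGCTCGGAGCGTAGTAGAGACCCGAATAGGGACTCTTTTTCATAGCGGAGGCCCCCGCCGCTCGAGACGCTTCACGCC
Tsc2: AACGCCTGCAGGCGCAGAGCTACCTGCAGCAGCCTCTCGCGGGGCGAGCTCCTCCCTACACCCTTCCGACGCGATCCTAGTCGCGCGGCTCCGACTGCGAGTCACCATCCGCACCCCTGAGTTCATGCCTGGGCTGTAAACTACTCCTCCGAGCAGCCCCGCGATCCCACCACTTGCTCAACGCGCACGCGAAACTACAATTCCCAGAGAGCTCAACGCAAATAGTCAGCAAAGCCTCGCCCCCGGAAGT
Mtor: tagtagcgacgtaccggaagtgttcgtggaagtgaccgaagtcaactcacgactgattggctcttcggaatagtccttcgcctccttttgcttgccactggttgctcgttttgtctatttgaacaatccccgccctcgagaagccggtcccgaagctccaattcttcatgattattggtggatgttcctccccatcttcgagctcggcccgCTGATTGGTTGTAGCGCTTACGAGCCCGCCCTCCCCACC
Rptor: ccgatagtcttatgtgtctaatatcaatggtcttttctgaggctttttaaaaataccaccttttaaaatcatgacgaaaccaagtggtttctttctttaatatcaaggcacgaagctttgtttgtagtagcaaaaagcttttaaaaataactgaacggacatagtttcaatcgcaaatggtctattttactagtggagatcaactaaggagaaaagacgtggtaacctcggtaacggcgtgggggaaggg
The 4 windows differ in base composition. The Rptor window held 37.6% G and C and 9 CpG dinucleotides, against 54.4% and 16 for Tsc1, 54.4% and 19 for Mtor and 62.8% and 24 for Tsc2, and a median of 52.4% and 6 over the 32851 windows of the table. Searched on both strands, the core FOXO motif GTAAACA was in none of these 4 windows and in 3.17% of all windows. Of the 10 windows of the members and Tsc2 (Akt1 has 2), the outer Akt1 window held it, at 1 place, beginning 161 bases before the start. The E-box CACGTG, which 6.02% of all windows hold, was in none of the 10. The GC box GGGCGG (32.7% of all windows) was at 2 places and CCAAT (33.8%) at 4 places in the Mtor window, and neither was in those of Tsc1, Tsc2 or Rptor.

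Foxo3 was the most abundant of these transcripts. Per kilobase of annotated exon, its level was 74.4 ± 12.2 CPM (mean ± SD over 87 oocytes), and it was above the second gene, Rictor, in 87 of 87 oocytes. Rictor (7.36 ± 1.55), Tsc1 (6.57 ± 1.505), Pik3ca (6.02 ± 1.32), Rps6kb1 (5.45 ± 1.08), Mtor (4.45 ± 1.21) and Akt1 (3.89 ± 1.03) followed, each differing from its neighbour by less than the larger of their SDs. Tsc2 (2.54 ± 0.630) lay below Akt1 in 75 oocytes and Rptor (1.16 ± 0.416) below Tsc2 in 86, both by more than 1 SD. With coding length in place of exon length, Foxo3 stayed first and Tsc2 and Rptor last, and the other 6 genes changed places. Those 6 genes also changed places between the 4 groups of oocytes, where Foxo3 was first and Tsc2 and Rptor last in each.

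**Figure D1:**
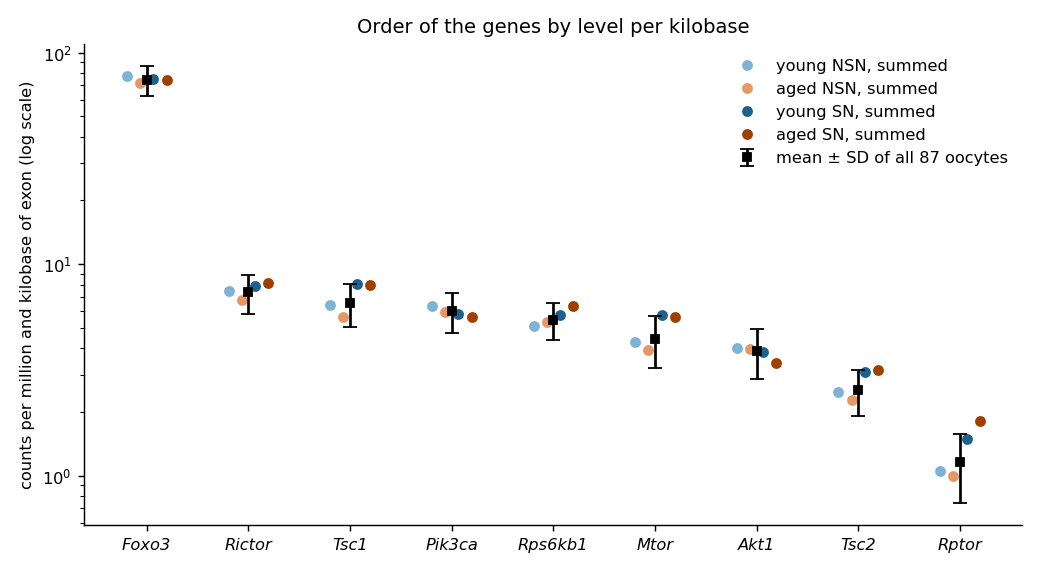
Level of 8 members and Tsc2 in CPM per kilobase of exon (log axis), with the mean ± SD of 87 oocytes as black squares and the summed level of each group of oocytes as coloured points. Foxo3 sits at 74.4, the next gene at 7.36 and Rptor lowest at 1.16.

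Pik3ca, Akt1 and Foxo3 were under 1.2-fold in each comparison of summed counts. Split by the suffix of oocyte names, the SN to NSN log2 ratio was -0.35 without the suffix A and 0.16 with it for Pik3ca in the young, -0.39 and 0.01 for Akt1 in the aged, and -0.14 and 0.31 for Foxo3 in the aged. Pik3ca encodes the catalytic subunit p110 alpha of PI3K. Its level was 33.6 to 86.9 CPM in young NSN oocytes (median 56.8), 38.2 to 71.8 in young SN (53.0), 29.3 to 95.2 in aged NSN (51.7) and 37.5 to 67.5 in aged SN oocytes (50.3). The 4 ranges overlapped almost wholly. From summed counts, Pik3ca was lower in SN than in NSN oocytes by a log2 ratio of -0.13 (95% interval -0.21 to -0.06) in the young and -0.08 (-0.17 to 0.02) in the aged. Aged NSN oocytes had a log2 ratio of -0.10 (-0.15 to -0.04) to young NSN oocytes.

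Akt1 encodes the AKT isoform that is most widely expressed in the body. It ranged from 10.7 to 23.9 CPM in young NSN oocytes (median 15.9), 10.2 to 19.4 in young SN (16.3), 8.54 to 33.7 in aged NSN (15.3) and 10.1 to 16.9 in aged SN oocytes (14.6). These values rest on 12 to 142 counts per oocyte. The lowest ratio was that of SN to NSN oocytes in the aged group, with a log2 ratio of -0.22 (-0.41 to -0.03).

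Foxo3 was at 392 to 706 CPM in young NSN oocytes (median 587), 419 to 657 in young SN (562), 241 to 717 in aged NSN (563) and 427 to 675 in aged SN oocytes (619). Aged NSN oocytes reached lower, with 4 of 37 under the lowest of the 30 young NSN oocytes. The pooled level differed little, with log2 ratios of -0.11 (-0.12 to -0.09) for aged over young NSN oocytes, -0.02 (-0.05 to 0.02) for aged over young SN oocytes, -0.05 (-0.07 to -0.02) for SN over NSN in the young and 0.04 (0.01 to 0.07) in the aged.

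Of the TSC complex genes, Tsc1 and Tsc2 were higher in SN oocytes. Tbc1d7, a further gene of that complex named after its values were seen, was under 1.2-fold at both ages. It was at 25.7 and 28.2 CPM in young NSN and SN oocytes and at 25.6 and 28.5 in the aged. Tsc1, whose protein stabilises TSC2, ranged from 61.1 to 102 CPM in young NSN oocytes (median 76.4) and from 80.5 to 130 in young SN oocytes (98.3). In the aged group it ranged from 45.01 to 96.00 CPM in NSN (68.1) and from 74.4 to 131 in SN oocytes (89.5). All 12 young SN and all 8 aged SN oocytes lay above the median of NSN oocytes of their age, though the ranges overlapped. The log2 ratio of SN to NSN oocytes was 0.33 (0.28 to 0.39) in the young and 0.50 (0.42 to 0.57) in the aged. Aged NSN oocytes were below young NSN oocytes by a log2 ratio of -0.18 (-0.23 to -0.14), with 12 of 37 under the lowest young value. Between SN oocytes of the 2 ages the ratio was -0.02 (-0.10 to 0.06).

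Tsc2, the catalytic partner that acts on RHEB, was lower in level, at 12.9 to 33.9 CPM in young NSN (median 25.2), 23.6 to 35.5 in young SN (30.9), 13.01 to 40.3 in aged NSN (19.6) and 23.8 to 34.5 in aged SN oocytes (30.7). No SN oocyte of either age fell under 23.6 CPM. Its log2 ratio of SN to NSN oocytes was 0.31 (0.21 to 0.42) in the young and 0.46 (0.33 to 0.60) in the aged, close to those of Tsc1. Per kilobase, the Tsc1 to Tsc2 ratio was 2.57 in young NSN, 2.61 in young SN, 2.48 in aged NSN and 2.53 in aged SN oocytes, and above 1 in 87 of 87 oocytes.

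**Figure D2:**
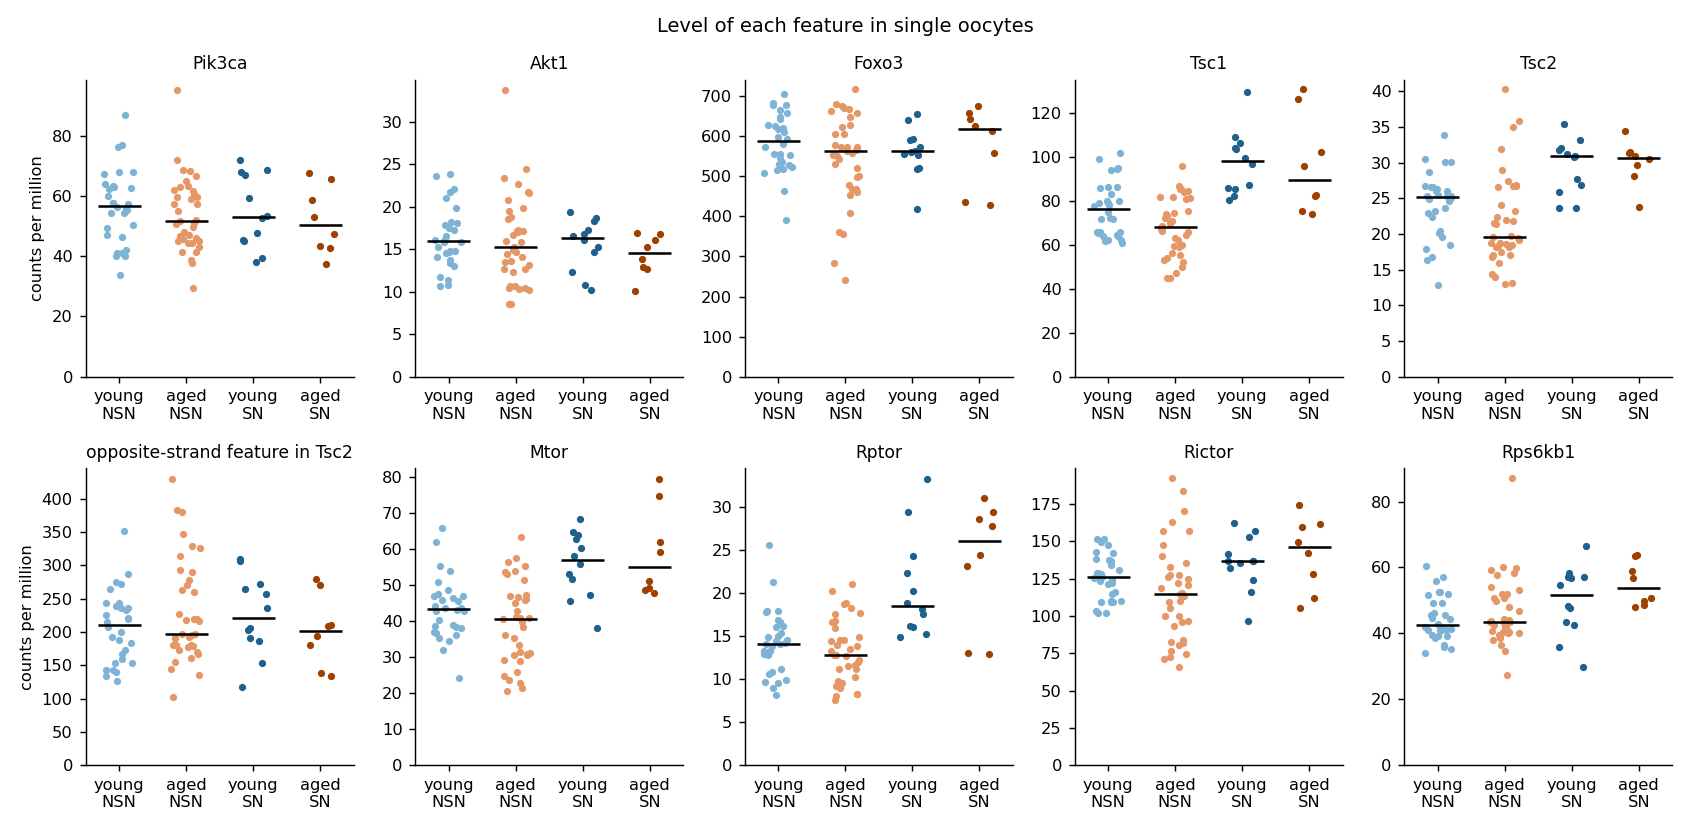
Level of each feature in single oocytes, in CPM from 0, with 1 point for each of the 87 oocytes and a black line at the median of each of the 4 groups. Tsc1, Tsc2, Mtor and Rptor sit higher in SN than in NSN oocytes, whereas Pik3ca, Akt1 and Foxo3 overlap in all groups.

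Mtor, the kinase of both complexes, was also higher in SN oocytes. It ranged from 24.2 to 65.9 CPM in young NSN (median 43.4), 38.1 to 68.4 in young SN (57.0), 20.7 to 63.5 in aged NSN (40.5) and 47.8 to 79.4 in aged SN oocytes (55.1). Of the SN oocytes, 11 of 12 young and 8 of 8 aged lay above the NSN median of their age. The log2 ratio was 0.42 (0.34 to 0.49) in the young and 0.52 (0.42 to 0.61) in the aged. Between ages it was -0.13 (-0.19 to -0.06) in NSN oocytes and -0.03 (-0.14 to 0.07) in SN oocytes.

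Rptor, which recruits substrates to mTORC1, had the highest SN to NSN ratio of the members at both ages. Its range was 8.13 to 25.6 CPM in young NSN (median 14.1), 14.9 to 33.2 in young SN (18.5), 7.63 to 21.1 in aged NSN (12.8) and 12.9 to 31.1 in aged SN oocytes (26.1). In the aged group, 6 of 8 SN oocytes were above the highest of the 37 NSN oocytes. The log2 ratio of SN to NSN oocytes was 0.51 (0.38 to 0.64) in the young and 0.88 (0.72 to 1.03) in the aged. Rptor was the only member past 1.2-fold between ages, with a log2 ratio of 0.29 (0.12 to 0.46) in SN oocytes. The 8 aged and 12 young SN oocytes overlapped, 2 aged ones lay under all young ones. The ratio was past 1.2-fold in 9 of 14 alternatives, and under it in the other 5, which were oocytes without the suffix A in their names (0.12), thinning every oocyte to 900000 counts (0.14), weighting oocytes equally (0.21), and leaving out the second aged run (0.14) or the third young run (0.24).

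Rictor, the subunit specific to mTORC2, was under 1.2-fold between configurations at both ages. It was at 102 to 152 CPM in young NSN (median 126), 96.9 to 162 in young SN (137), 65.6 to 193 in aged NSN (115) and 105 to 175 in aged SN oocytes (146). The aged NSN oocytes spread to both sides of the young, with 14 of 37 under the lowest and 6 above the highest of the 30 young NSN oocytes. The log2 ratio of SN to NSN oocytes was 0.07 (0.03 to 0.12) in the young and 0.26 (0.20 to 0.32) in the aged. The aged value was just under the fold and passed it in 5 of 11 alternatives, with 0.61 in oocytes whose names end in A and -0.0014 in those without that suffix. Per kilobase, Rictor exceeded Rptor in 87 of 87 oocytes, and their ratio was 7.15 in young NSN, 5.30 in young SN, 6.84 in aged NSN and 4.46 in aged SN oocytes.

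Rps6kb1, the S6 kinase, was at 34.05 to 60.3 CPM in young NSN (median 42.4), 29.8 to 66.6 in young SN (51.6), 27.4 to 87.05 in aged NSN (43.5) and 47.9 to 63.9 in aged SN oocytes (53.7). All 8 aged SN oocytes were above the aged NSN median. The log2 ratio of SN to NSN oocytes was 0.17 (0.09 to 0.25) in the young and 0.25 (0.16 to 0.35) in the aged. Its feature overlaps 2 features on the other strand, that of Pik3ca 1 and that of Tsc2 3. Whether the counting used strand is not given in the sources used here, so reads of overlapping features cannot be told apart.

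**Figure D3:**
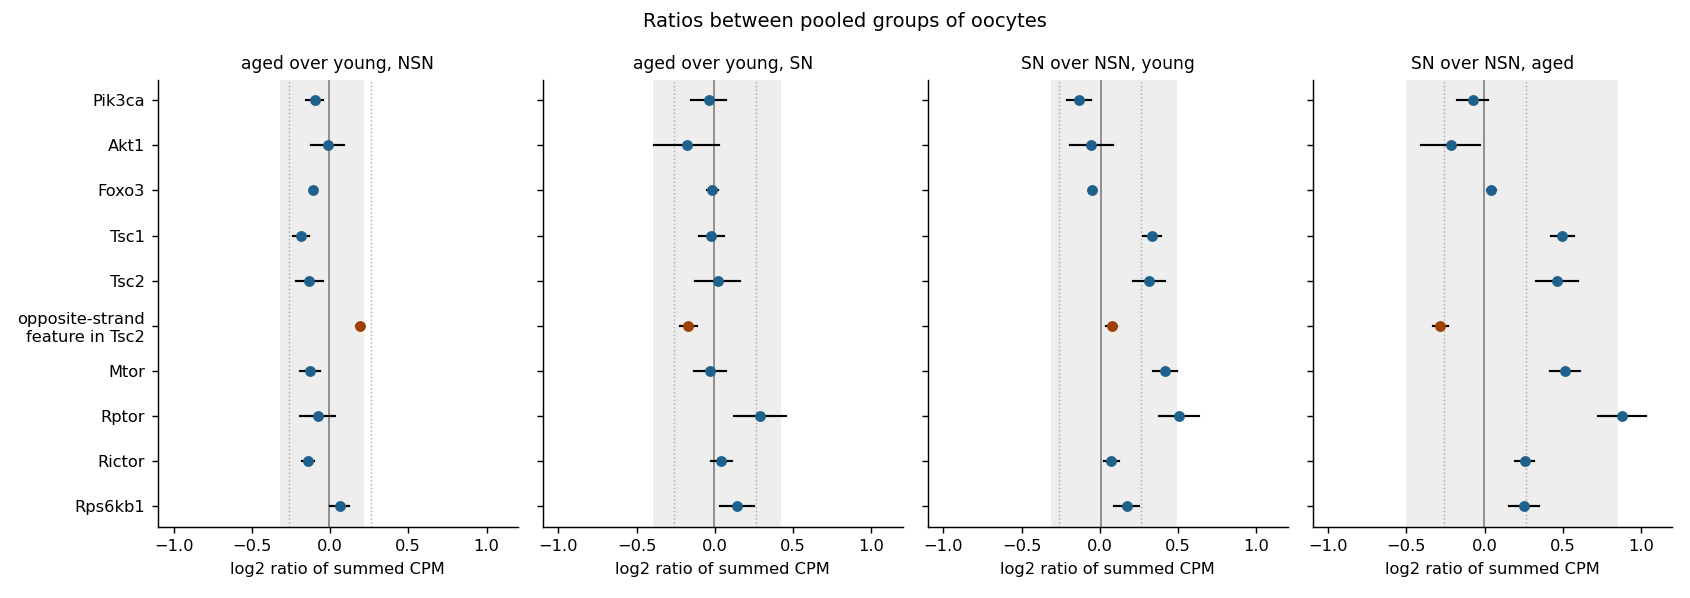
Log2 ratio of summed CPM for 4 comparisons, with 95% counting intervals, and in each panel the median (grey line) and the 5th to 95th percentile (grey band) of 12408 features, with dotted lines at 1.2-fold. Tsc1, Tsc2, Mtor and Rptor pass 1.2-fold upward in SN oocytes of both ages, and Rptor at 0.88 in the aged is the highest.

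Counted by the rule's 9 features, 3 were at least 1.2-fold higher in SN than in NSN oocytes in the young group (Tsc1, Mtor, Rptor) and none lower. Of all 12408 features, 14.5% were higher and 7.57% lower by that fold. The members' median log2 ratio was 0.08 beside 0.01 over all features. In the aged group the same 3 were higher and the opposite-strand feature lower, beside 23.8% of all features higher and 19.7% lower, with medians of 0.25 and -0.0049. With Tsc2 in place of the opposite-strand feature, 4 of 9 were higher and none lower at each age, and the medians were 0.17 and 0.26. Rptor stood above 95.5% of features in the young comparison and 95.3% in the aged, Mtor above 93.25% and 88.5%, Tsc1 above 89.9% and 87.8%, and Tsc2 above 88.7% and 86.6%. The young and aged comparisons share no oocyte, but oocytes of both ages were classed with the same genes from their own transcripts. Agreement between the ages is therefore not independent of that classification.

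Between ages, no member passed 1.2-fold over all oocytes (2.35% of features higher, 5.78% lower) or in NSN oocytes (2.63% and 7.30%). In SN oocytes Rptor alone did (11.7% higher, 11.0% lower). Most members were slightly lower in aged oocytes. In NSN oocytes 2 of 9 had a log2 ratio above 0 and the median was -0.10, beside 47.2% of features above 0 and a median of -0.01. With Tsc2 in place of the opposite-strand feature it was 1 of 9, Rps6kb1 at 0.06 (-0.00048 to 0.12). The names of the oocytes form 3 runs of consecutive numbers in each age group, whose meaning the labels do not give. Set run against run in NSN oocytes, none of the 9 members nor Tsc2 had its 3 aged runs all on 1 side of its 3 young runs. Of all features, 7.95% had all aged runs below and 5.14% all above the young runs. Tsc1 was at 58.4 to 72.4 CPM in the aged runs and 69.3 to 80.4 in the young, Mtor at 37.2 to 42.5 and 41.2 to 46.0, and Tsc2 at 21.2 to 23.04 and 22.8 to 25.02. The log2 ratios between ages in NSN oocytes moved with the run left out, from -0.21 to -0.03 for Foxo3, and with the suffix in the oocyte names, Mtor being -0.34 where the name ends in A and 0.07 where it does not.

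Within runs, the SN to NSN differences could be set side by side in 5 runs, since the first young run held 1 SN oocyte. Tsc1 was higher in SN oocytes in 5 of 5 runs, with log2 ratios of 0.22 to 0.72. Mtor was higher in 5 of 5 runs (0.32 to 0.73), Tsc2 in 5 of 5 (0.31 to 0.55) and Rptor in 5 of 5 (0.08 to 1.00). The lowest Rptor value came from the first aged run, where 2 SN oocytes gave an interval of -0.43 to 0.56. Rps6kb1 was higher in 5 of 5 runs by 0.03 to 0.32 and Rictor in 4 of 5. Akt1 was lower in 5 of 5, by log2 ratios of -0.14 to -0.28. Its interval included 0 in the third young (-0.37 to 0.10), first aged (-0.66 to 0.34) and second aged run (-0.61 to 0.03). Over all young oocytes the sign of its ratio turned in 3 of 10 alternatives. Foxo3 and Pik3ca were higher in 2 of 5 runs each. How many of all features lay on 1 side of 0 in all 5 runs was not tested. The ratios of Mtor and Rptor stayed past 1.2-fold under every alternative tried (10 in the young, 11 in the aged), as did those of Tsc1 and Tsc2 except in young oocytes with the suffix A, where they were 0.21 and 0.21.

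**Figure D4:**
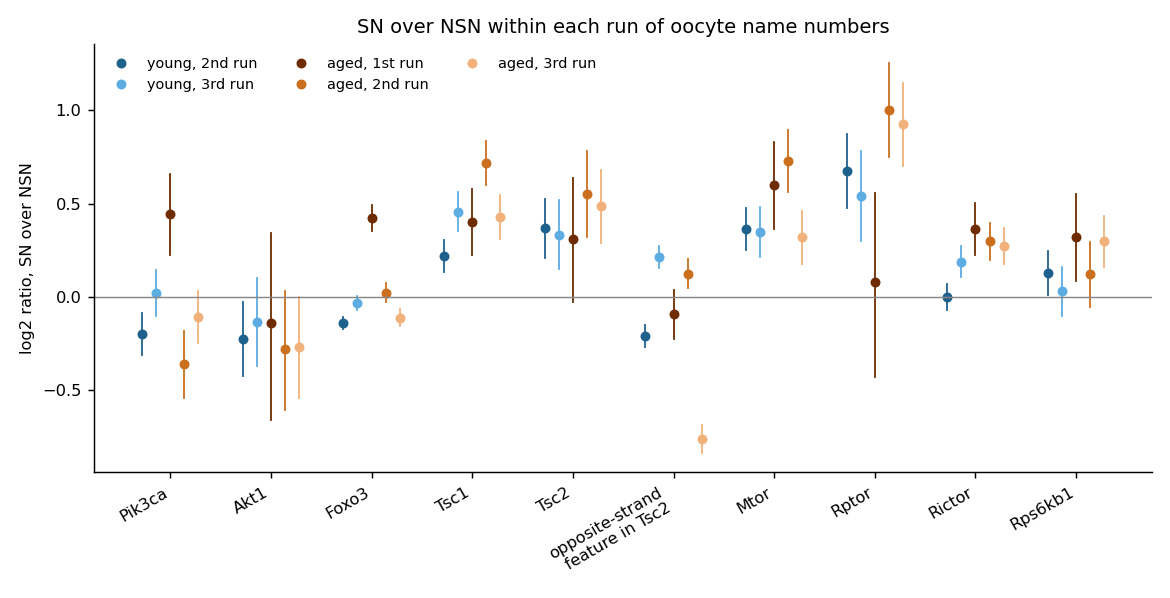
Log2 ratio of SN over NSN oocytes within each of 5 runs of oocyte name numbers, with 95% counting intervals, for each member and Tsc2. Tsc1, Tsc2, Mtor and Rptor lie above 0 in 5 of 5 runs and Akt1 below 0 in 5 of 5, and the opposite-strand feature lies at -0.76 in the third aged run.

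The spread between oocytes was larger in the aged group for 9 of 9 members. Spread was measured as the squared coefficient of variation over oocytes, less the part that counting noise gives. Rictor had a value of 0.0151 in young and 0.0713 in aged oocytes, a log2 ratio of 2.24 that exceeded that of 98.5% of features. Foxo3 had 0.0124 and 0.0377 (log2 ratio 1.61), Akt1 0.0230 and 0.0630 (1.45), Tsc2 0.0240 and 0.0619 (1.37) and Mtor 0.0366 and 0.0922 (1.33). Pik3ca had nearly equal values of 0.0420 and 0.0428 (0.03). Over all features 73.8% had the larger spread in aged oocytes and the median log2 ratio was 0.46, whereas the 9 members had a median of 0.85, or 1.33 with Tsc2 in place of the opposite-strand feature. Larger spread in aged oocytes was shared with most features. The count of members was 7 of 9 when every oocyte was thinned to 900000 counts, where Pik3ca (-0.42) and Rps6kb1 (-0.17) fell below 0. It was 7 to 9 with a run left out, Rps6kb1 being -0.38 without the first aged run, Pik3ca -0.27, -0.33 and -0.21 without the second young, the third young and the second aged runs, and Rptor -0.05 without the second aged run.

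In NSN oocytes alone, 8 of 9 members had the larger spread in aged oocytes, beside 73.7% of all features. Rptor was the exception at -0.20. Which members were exceptions depended on the setting. When thinned, Rptor was 2.93 and Pik3ca (-0.28) and Tsc1 (-0.18) were below 0, and Rptor was 1.07 without the second young run and 0.26 without the third aged run. With a run left out, 7 to 9 of 9 members were above 0. The members' median log2 ratio was 1.30 beside 0.52 for all features. The first aged run carried much of the Foxo3 and Rps6kb1 values. Without it the NSN log2 ratio of spread was 0.26 for Foxo3 (1.65 with it), 0.18 for Rps6kb1 (1.38 with it) and 2.22 for Rictor (2.54 with it), and the members' median was 0.26 beside 0.54 for all features. In that run the pooled Foxo3 level of NSN oocytes was 478 CPM, beside 629 and 530 in the other aged runs. Measured from the mean of each run, the spread still gave log2 ratios of 2.65 for Rictor and 1.45 for Foxo3.

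**Figure D5:**
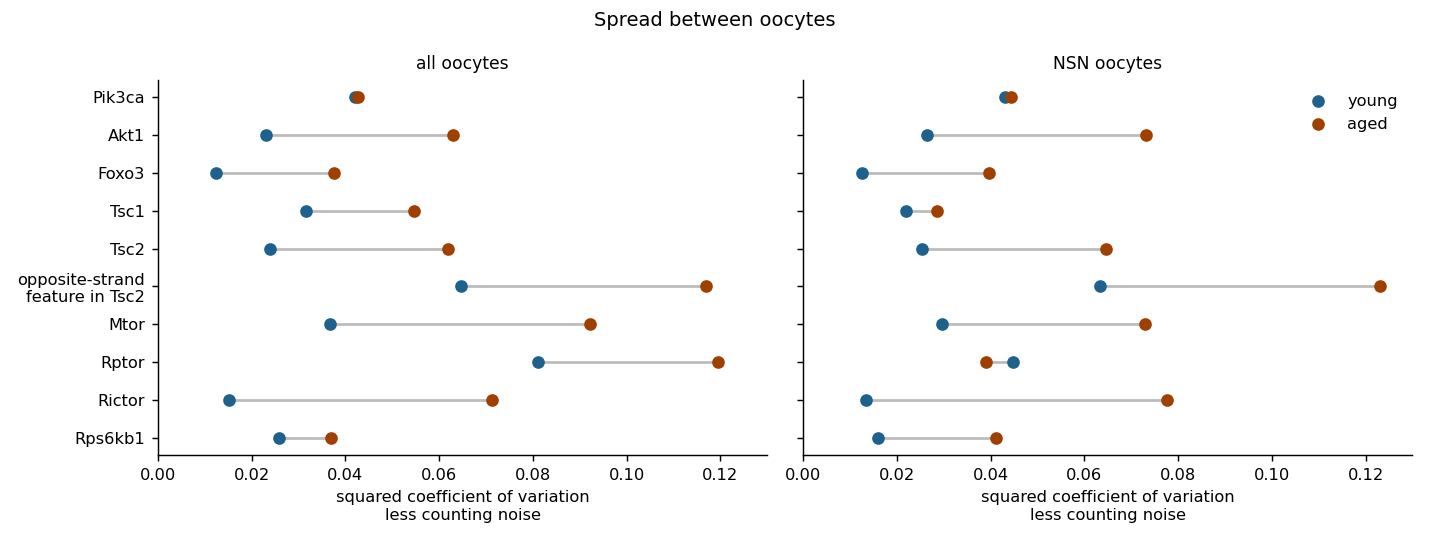
Squared coefficient of variation over oocytes less counting noise, from 0, for young (blue) and aged (brown) oocytes, over all oocytes at left and NSN oocytes at right. In all oocytes the aged value is the larger for every feature shown, by most for Rictor (0.0151 against 0.0713), and in NSN oocytes for all but Rptor.

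The opposite-strand feature lies at chr17:24611336-24618302 on the plus strand, inside the Tsc2 gene on the minus strand (chr17:24595816-24632630), and covers 1016 bases of its exons. Its mean of 626 counts per oocyte exceeded that of the Tsc2 feature, 69.8. It ranged from 127 to 351 CPM in young NSN (median 211), 118 to 310 in young SN (221), 103 to 429 in aged NSN (197) and 134 to 279 in aged SN oocytes (201). The 4 medians were close and the ranges overlapped. Its pooled log2 ratio of SN to NSN oocytes was 0.08 (0.04 to 0.11) in the young and -0.28 (-0.33 to -0.23) in the aged, but the aged value turned to 0.12 without the third aged run and was 0.03 from the medians of oocytes. Over the 87 oocytes its Spearman correlation with Tsc2 was -0.14, but reads over the shared exon bases cannot be told apart.

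A list of 90 further genes of the pathway was sorted into 10 roles. A feature was found for 85, and 70 had a mean of at least 10 counts. In young oocytes 12 of the 70 were at least 1.2-fold higher and 4 lower in SN than in NSN oocytes, and in the aged 23 were higher and 12 lower, beside the shares of all features given above. Their median log2 ratios were 0.07 and 0.08. Between ages over all oocytes none was higher and 2 were lower, beside 2.35% of all features higher and 5.78% lower. The 2 were Insr at -0.44 and Maf1 at -0.30. Wdr59 (-0.23) came next, and Gsk3b (0.20), Rheb (0.15) and Lamtor3 (0.13) were the highest. In NSN oocytes none was higher and 3 lower, beside 2.63% of all features higher and 7.30% lower. In SN oocytes 10 were higher and 5 lower with age, beside 11.7% of all features higher and 11.0% lower.

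Among the receptors and PI3K subunits, Kit, the receptor through which granulosa cells activate PI3K in the oocyte, was at 562 CPM in young NSN, 674 in young SN, 507 in aged NSN and 689 in aged SN oocytes. The SN to NSN log2 ratios of Kit were 0.26 and 0.44, young and aged. Insr, the insulin receptor, was at 5.52, 5.09, 4.30 and 2.41 CPM in the same order, at a mean of 13.4 counts per oocyte, and had the lowest SN to NSN ratio of the list in the aged (-0.83). Of 5 PI3K subunits other than Pik3ca, 2 were higher by 1.2-fold in SN oocytes at each age, beside 14.5% of all features in the young and 23.8% in the aged. Pik3cd, the p110 delta subunit, was named after its values were seen, because its level stood out. It was at 103 CPM per kilobase over all oocytes, with a median ratio to Pik3ca of 17.1 over oocytes, and above it in 87 of 87 oocytes, with log2 ratios of SN to NSN oocytes of 0.08 and -0.05.

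Pdpk1, the kinase that activates AKT, was at 163 and 187 CPM in the young and 146 and 195 in the aged (log2 ratios 0.20 and 0.42). Per kilobase, Akt1 was at 3.92 CPM and its paralogue Akt2 at 1.35, and Akt1 was above Akt2 in 87 of 87 oocytes. SN to NSN log2 ratios of Akt2 were 0.10 in the young and -0.08 in the aged. Phlpp1, a phosphatase of AKT, was at 4.07 CPM in aged NSN and 7.23 in aged SN oocytes (0.83), and at 5.03 and 4.44 in the young (-0.18).

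Among AKT substrates, Foxo1, the paralogue of Foxo3, was lower in SN than in NSN oocytes, with 291 and 229 CPM in the young (-0.35) and 284 and 239 in the aged (-0.25). The Foxo3 to Foxo1 ratio per kilobase was 2.31 in young NSN, 2.84 in young SN, 2.20 in aged NSN and 2.69 in aged SN oocytes. It was above 1 in 87 of 87 oocytes, with a lowest value of 1.002 in an aged NSN oocyte. The Foxo1 feature covers 5554 of the 8665 exon bases used as its length, whereas the Foxo3 feature covers all 7571. The ratio and its count above 1 therefore depend on that length, and the covered length was not tested. Gsk3b, a kinase that AKT inhibits, was at 30.9, 34.2, 33.7 and 50.5 CPM in young NSN, young SN, aged NSN and aged SN oocytes, and had the highest ratio of the list between ages over all oocytes (0.20). Cdkn1b, the cell cycle inhibitor p27, was at 14.3 CPM in aged SN and 20.4 in aged NSN oocytes (-0.52).

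Downstream of the TSC complex, Rheb went the other way to Tsc1 and Tsc2. It was at 97.9 CPM in young NSN, 89.7 in young SN, 111 in aged NSN and 83.0 in aged SN oocytes, with SN to NSN log2 ratios of -0.13 and -0.42, and was among the 3 highest of the list for aged over young NSN oocytes (0.18). Ddit4, a stress-induced inhibitor of mTORC1 upstream of the TSC complex, was 0.14 in that comparison. Of the 9 other mTOR complex subunits and assembly factors, 4 were higher by 1.2-fold in SN oocytes and none lower at each age, beside 14.5% of all features higher in the young and 23.8% in the aged, and their median log2 ratios were -0.02 and -0.03. They include Mlst8, a subunit of both complexes (0.49 in the young, 0.66 in the aged), and Tti2, a factor in their assembly (0.48 and 0.88). Of the 15 RAG, Ragulator, FLCN and GATOR genes, which relay amino acid levels to mTORC1, 1 was higher and 1 lower in SN oocytes of the young group, and 2 were higher and 6 lower in the aged. Of all features, 14.5% were higher and 7.57% lower in the young, and 23.8% and 19.7% in the aged. Lamtor5 and Lamtor3, Ragulator subunits, had log2 ratios of -0.27 and -0.14 in the young and -0.42 and -0.41 in the aged. Wdr59, a GATOR subunit, was at 4.51 and 6.45 CPM in young NSN and SN oocytes (0.52) and at 4.27 and 4.52 in the aged (0.08). For aged over young SN oocytes Insr (-1.08), Wdr59 (-0.51) and Cdkn1b (-0.35) were the lowest of the list and Maf1 (0.52), Gsk3b (0.56) and Phlpp1 (0.70) the highest, and for aged over young NSN oocytes Maf1 (-0.63), Insr (-0.36) and Phlpp1 (-0.31) were the lowest and Lamtor3 (0.16) followed Rheb.

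Of the 9 LKB1 and AMPK genes, which restrain mTORC1 when energy is low, 1 was at least 1.2-fold higher in SN oocytes of the young group and 4 of the aged, and none was lower, beside 14.5% and 23.8% of all features higher. Stk11 (LKB1) was at 59.3 and 53.9 CPM in young NSN and SN oocytes and 59.2 and 54.3 in the aged. Prkaa2 and Prkab2, a catalytic and a regulatory subunit of AMPK, were named after their values were seen. Prkaa2 was at 34.02 and 41.2 CPM in young NSN and SN oocytes and at 31.8 and 54.9 in the aged, and Prkab2 at 15.1 and 17.7 in the young and 14.8 and 23.9 in the aged. Between ages in SN oocytes 3 of the 9 were higher and none lower, beside 11.7% of all features higher. Among mTORC1 substrates and translation factors, Rps6, the ribosomal protein that S6 kinase phosphorylates, was at 45.2 and 47.9 CPM in the young and 41.03 and 46.96 in the aged. Eif4ebp1, a translation repressor under mTORC1, had a mean of 3.33 counts per oocyte and was at 0.900 to 1.62 CPM in the 4 groups, too few to compare. Maf1, a repressor of RNA polymerase III under mTORC1, had the highest SN to NSN ratio of the list at both ages (1.29 and 2.44), at 3.04 and 7.44 CPM in the young and 1.96 and 10.6 in the aged. Its mean count was 11.1, and its feature overlaps 1 feature on the other strand.

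Levels of the members were only loosely coupled from oocyte to oocyte. With every oocyte thinned to 900000 counts, the 36 pairs of the 8 other members and Tsc2 had a median Spearman rho of 0.13 over 87 oocytes and a range of -0.29 to 0.48, beside a median of 0.0034 over all pairs of 8172 features and a 5th to 95th percentile of -0.29 to 0.31. These values are descriptions and share configuration, run and base composition. The highest pairs were Tsc1 with Mtor (0.48), Mtor with Tsc2 (0.41) and Tsc1 with Rictor (0.41), and the lowest was Pik3ca with Rptor (-0.29). In the 30 young NSN oocytes alone the median over the 36 pairs was 0.02, and in the 37 aged NSN oocytes 0.07.

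Among 6913 named features with a mean of at least 50 counts, the features whose level was most like a member's over the 87 oocytes were Pik3r4 (rho 0.74) and Uggt1 (0.73) for Mtor, Birc6 (0.75) and Crebbp (0.70) for Rictor, Rif1 (0.71) and AI848100 (0.70) for Pik3ca, and Kit (0.67) and Syvn1 (0.67) for Tsc1. For Foxo3 they were Chd8 (0.66) and Ern1 (0.64), and for Tsc2 Padi6 (0.57) and Zp2 (0.56). The rho was below 0.5 for Rptor (Plin3 and Mrtfa, 0.48 and 0.45), Rps6kb1 (Vapa and Soat1, 0.47 for both) and Akt1 (Ap2s1 and Gm20388, 0.40 and 0.38), and above it for the opposite-strand feature (Frg1 and Pla1a, 0.59 and 0.55). Mean counts per thinned oocyte were 14.2 for Rptor, 14.4 for Akt1 and 42.9 for Rps6kb1.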

How the data were processed

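RNA of single oocytes was measured by scM&T-seq with Smart-seq2 amplification and single-end reads. Per the study's methods, reads were trimmed with Trim Galore and aligned to GRCm38 with HiSat2, and the authors deposited raw read counts for 38540 oocyte transcriptome features in 88 oocytes. The counting program and its strand setting are not given in the sources used here. Ages were taken from the sample labels and configurations from the study's table of oocytes. 1 aged oocyte without a configuration was left out, leaving 87.

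Counts of a group were summed and divided by the summed totals (CPM). Intervals are exact Poisson for levels and exact conditional binomial for ratios. A feature was called past 1.2-fold in either direction, the background being features with a mean of at least 10 counts and at least 3 counts in both groups. Spread was taken on counts divided by median of ratios size factors. Alternatives were thinning to 900000 counts, TMM factors (edgeR 4.0.16), size factors, means or medians of oocytes, the suffix of oocyte names and leaving out each run of names. Functions were tested on simulated data. The members and lists were chosen with earlier results of these data known. Named were the members, 11 list genes fixed by name, the 3 highest and 3 lowest list genes of each comparison and the 2 features most like each member. The values of some list genes that this rule names are not reported here, and they remain in the counts over the list. Promoter windows are from RefSeq (GRCm38.p6).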

Additional observations from a re-analysis of the deposited data

How the results depend on the processing

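The limits are those of the design: the mouse of each oocyte is unknown, the first young run of oocyte names holds 1 SN oocyte, and low members rest on few counts. Of the 162 alternative values of the members' medians and counts, 132 stayed within the limits set for a move (0.1 in log2 or 1.5 times a count) and 30 moved. Values of single members were less steady: 191 alternative values moved, 2 reversed and 437 stayed. Of the background shares 11 moved and 4 stayed. The causes were not tested.

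For aged over young, calls among the 9 members numbered 3 in oocytes with the suffix A (0 in the main values), both over all and in NSN oocytes, where the median went to -0.23, and 0 to 1 with a run left out. In SN oocytes, where 1 was called, there were 0 when thinned or with means of oocytes, 3 with the suffix A (median 0.15), 2 without it (Akt1 and the opposite-strand feature, not Rptor), 0 at 1.5-fold, and 0 to 2 with a run left out (median -0.094 to 0.079). For SN over NSN, the median was 0.039 to 0.22 with a young run left out, and -0.0014 in aged oocytes without the suffix, and at 1.5-fold 0 members were called in the young and 1 in the aged. The aged SN to NSN ratio of the opposite-strand feature reversed to 0.033 with medians of oocytes, and was -0.52 to 0.12 with a run left out, highest without the third aged run.

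The members' median log2 ratio of spread over all oocytes was 1.33 within runs, 1.33 with Tsc2 in place of the opposite-strand feature, and 0.74 to 1.21 with a run left out. In NSN oocytes it was 0.98 when thinned and 0.26 to 1.48 with a run left out, lowest without the first aged run. Coding length kept 3 of 9 genes in their place in the order of levels. Summing same-strand overlapping features changed nothing, since no member had 1. A minimum mean of 40 counts, chosen after seeing the data, took the share of features past 1.2-fold between ages from 8.13% to 4.197%, and for SN over NSN from 22.1% to 15.2% in the young and from 43.5% to 36.98% in the aged. No result comes from a test, so no paired test was run, and SN and NSN oocytes were only set side by side within runs. Young and aged oocytes share no name number, and the labels do not say whether SN and NSN oocytes that share a number or a run share a mouse.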

Other observations

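The aged oocyte without a chromatin configuration stood apart from the 45 other aged oocytes at several members. The study's methods state that an oocyte was dropped as an outlier in a distance matrix of transcriptomes, without naming it. The paper classed 87 oocytes, 45 of them aged, and this is the only oocyte without a configuration. By these counts it was the oocyte dropped. Foxo3 was at 118 CPM, below all 45 (241 to 717). Rictor was at 21.2 CPM (65.6 to 193 in the others) and Mtor at 13.4 CPM (20.7 to 79.4), again below all 45. Its Tsc2 level of 13.4 CPM was above 2 of the 45. The opposite-strand feature, at 411 CPM, was above 44 of the 45, and Akt1 at 22.6 CPM above 41, while Rptor (15.3 CPM), Rps6kb1 (53.2 CPM) and Pik3ca (30.7 CPM) lay within the range of the others.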
